A study of Homo sapiens with 18 samples.

Results

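Described here are 7 human genes of nerve attraction or of neurons in an oral carcinoma cell line: the neurotrophin gene BDNF, the neurofilament genes NEFM and NEFL, the sodium channel gene SCN9A, the vesicle gene SYT1, the ion channel gene TRPV1 and the LY6-family gene LYPD1. They were taken by symbol from a table of 60683 genes, and all 7 were found and had enough counts to be tested. The cells were Cal27, a line from a squamous cell carcinoma of the tongue, so the results describe 1 tumour line. Total RNA was sequenced from 18 samples in 6 groups of 3 after 24 hours of treatment. The groups were glucose-deprived medium with CGRP, glucose-deprived medium without it, high-glucose DMEM holding 5 mM 2-DG with CGRP, the same 2-DG medium without it, high-glucose DMEM with CGRP, and high-glucose DMEM without it. CGRP was recombinant human peptide at 10 nM, and the arms without it are called control below. The titles name the arms TG and capTG, the design text reads TG as CGRP and capTG as control, and the growth protocol mentions only different CM. The arms are used as the design text reads them, and the comparison asks how these cells respond to CGRP when glucose supply or use is limited.

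CGRP is a peptide released by sensory nerve endings, and it signals through a receptor made of CALCRL and RAMP1 that raises cyclic AMP. BDNF is a secreted growth factor that supports nerve fibres through the receptor NTRK2. NEFM and NEFL are the medium and light subunits of the neurofilament, SCN9A is the pain-related sodium channel Nav1.7, SYT1 is the calcium sensor of synaptic vesicle release, and TRPV1 is the channel that opens to capsaicin, heat and acid. LYPD1 is a membrane-anchored protein that modulates nicotinic acetylcholine receptors in the mouse nervous system. 2-DG is a glucose analogue that blocks glycolysis while glucose itself remains in the medium.

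To show the DNA upstream of LYPD1, the member with the largest fold change to CGRP in 2-DG and high glucose, and of SCN9A, the member with the largest fold change to deprivation, 190 bases are printed for each RefSeq start site (GRCh38.p14, minus strand, from 250 to 61 bases before the start, written 5′ to 3′). The first LYPD1 start has chr2:132671587-132671776, the second has chr2:132670266-132670455, and SCN9A has chr2:166376005-166376194. Capitals mark an AP-1 motif (TGACTCA) directly followed by an E-box (CACGTG) at the first LYPD1 start, and an E-box at the second.
LYPD1 start 1: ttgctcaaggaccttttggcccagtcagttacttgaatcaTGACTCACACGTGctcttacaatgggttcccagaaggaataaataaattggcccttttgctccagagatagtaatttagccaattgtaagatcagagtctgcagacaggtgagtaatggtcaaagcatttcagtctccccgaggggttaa
LYPD1 start 2: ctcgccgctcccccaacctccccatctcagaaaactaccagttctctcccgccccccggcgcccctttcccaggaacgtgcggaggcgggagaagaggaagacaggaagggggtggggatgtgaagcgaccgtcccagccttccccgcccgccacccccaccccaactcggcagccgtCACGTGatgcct
SCN9A: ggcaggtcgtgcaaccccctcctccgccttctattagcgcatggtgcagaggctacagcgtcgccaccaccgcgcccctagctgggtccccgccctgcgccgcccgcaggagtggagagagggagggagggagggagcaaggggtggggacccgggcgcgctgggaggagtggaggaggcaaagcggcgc

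Windows of 300 bases, 250 before to 50 after a start, were searched on both strands for 6 motifs in 11 windows of 5 members. BDNF, SCN9A, SYT1, TRPV1 and LYPD1 had windows in the table. The motifs were the cyclic AMP response element TGACGTCA, AP-1, the E-box, the C/EBP-ATF core TGATGNAA, the ER stress element and the REST element. Besides the LYPD1 matches shown above, the second BDNF start had an E-box that began 42 bases before it, and the windows of SCN9A, SYT1 and TRPV1 had none of the 6. Among 35116 promoter windows of the same length, 4.95% held AP-1, 7.26% the E-box, 1.85% the cyclic AMP element, 3.62% the C/EBP-ATF core, 0.0769% the ER stress element and 0.0142% the REST element. These matches describe letters and not binding.

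Each library held 28.04M to 32.66M counts, and levels are given as CPM, counts scaled to library size with TMM factors. On a principal component analysis, deprived CGRP replicate 2 and 2-DG control replicate 2 stood apart on the second component, at -59.34 and -34.62. Markers of squamous epithelium were present throughout, with all 9 tested and a summed level of 4012 to 5567 CPM. Of 12 neuron markers 5 were tested, with a summed level of 11.2 to 18.02 CPM, and ELAVL4 and STMN2 were at 0 in all 18 libraries. Of 10 sensory neuron markers 2 were tested, with a summed level of 6.11 to 11.2 CPM, and SCN10A, CALCA, TAC1 and ADCYAP1 were at 0 in all 18. The neuron markers tested were MAP2, TUBB3, SYP, SLC17A7 and GAD1, and the sensory neuron markers tested were PRPH and POU4F1. In high-glucose control MAP2 averaged 9.30 CPM, POU4F1 9.08 CPM and GAD1 3.86 CPM, so some markers of both lists were detected. In bulk RNA, fewer cells that express a gene and less RNA per cell cannot be told apart.

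**Figure D1:**
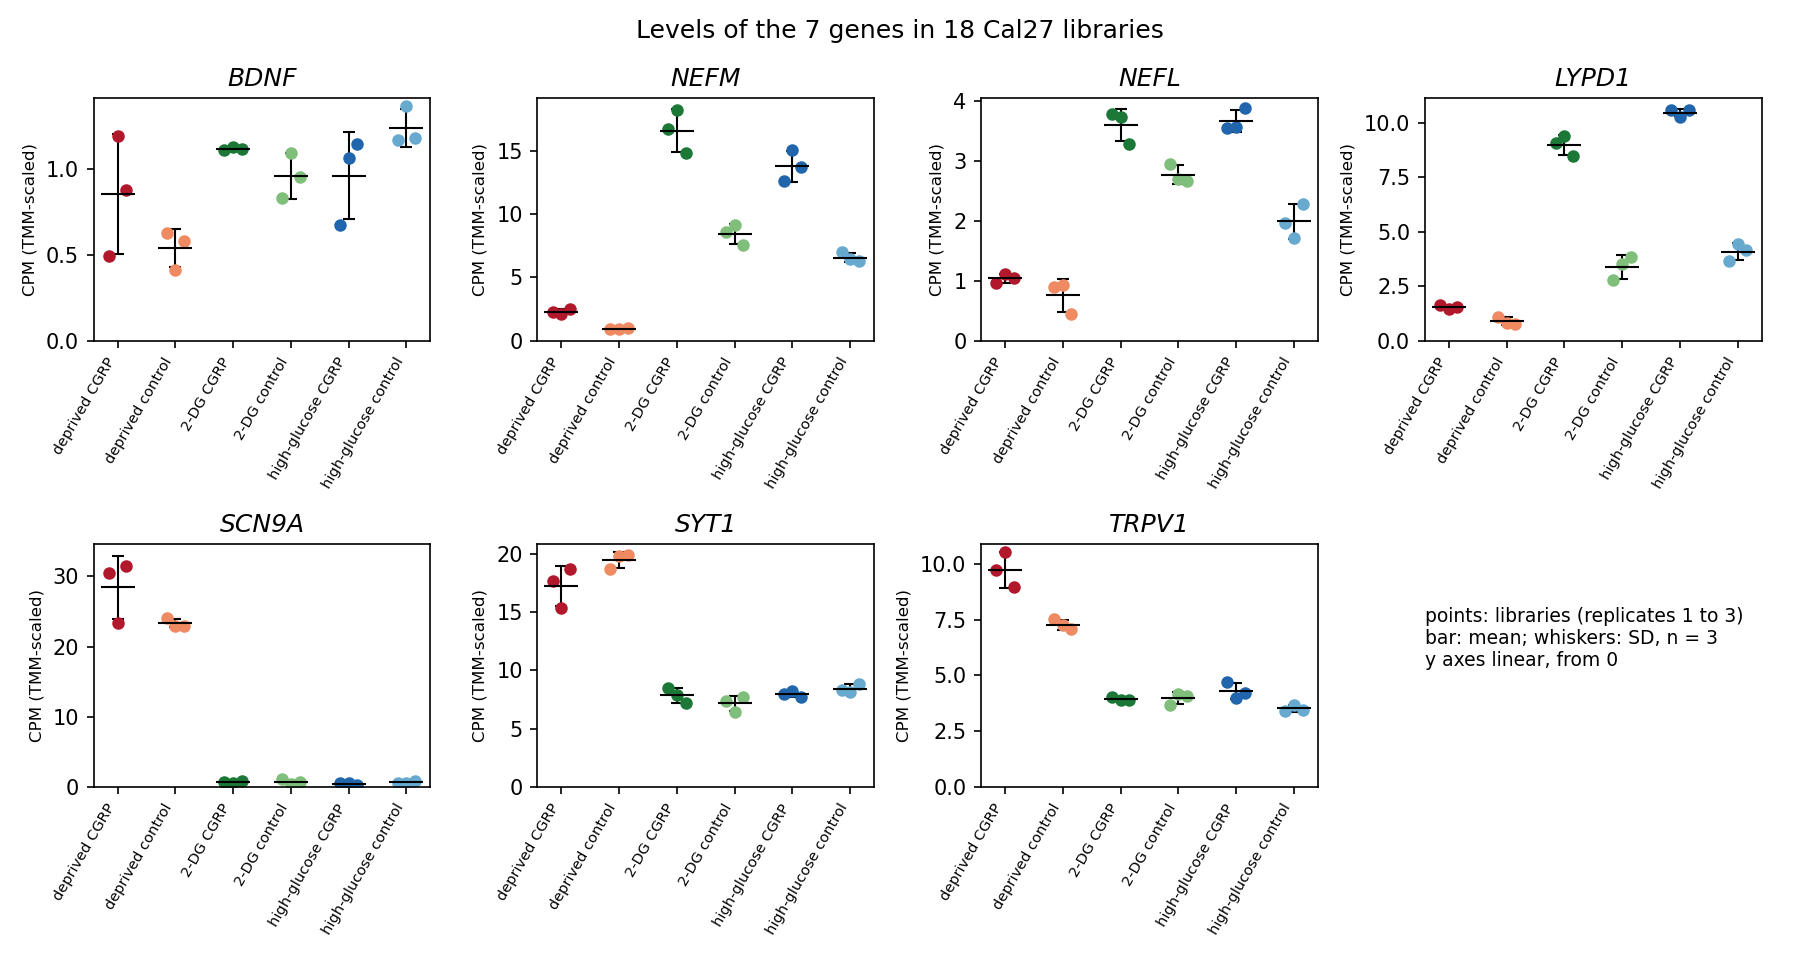
Level of each gene in CPM (linear axes from 0) in the 18 libraries by group, with the mean and SD of 3. NEFM, NEFL and LYPD1 were lowest in both deprived groups, SCN9A, SYT1 and TRPV1 were highest there, and NEFM and LYPD1 were higher with CGRP in every medium.

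NEFM and LYPD1 rose with CGRP in all 3 media, NEFL rose in high glucose, TRPV1 rose in deprived medium, and BDNF, SCN9A and SYT1 were not called in any. Of the 7 members, 3 rose and none fell with CGRP in deprived medium (NEFM, LYPD1, TRPV1), where 6.38% of all 18159 tested genes were called higher and 6.58% lower. In 2-DG medium 2 rose and none fell (NEFM, LYPD1), against 5.31% of all genes called higher and 6.89% lower. In high glucose 3 rose and none fell (NEFM, NEFL, LYPD1), against 2.04% called higher and 2.29% lower. Averaged over the media 4 rose and none fell, against 9.92% called higher and 11.5% lower. The median log2 fold change of the members was 0.46 in deprived medium, 0.22 in 2-DG medium and 0.29 in high glucose, against medians over all genes of 0.01, -0.01 and -0.01. The members were chosen with earlier results of these data known, so such counts and medians, here and below, only describe them. Calls are at an adjusted p under 0.05 from edgeR's quasi-likelihood test with Benjamini-Hochberg adjustment over all tested genes, and each error of a log2 fold change below is the SE implied by that test. Without both libraries that stood apart, 5307 genes were called in deprived medium, 5249 in 2-DG medium and 3520 in high glucose, against 2354, 2216 and 787 with all libraries. The members called were then 4, 2 and 4, with SCN9A added in deprived medium and TRPV1 in high glucose. With only the deprived groups fitted, NEFM alone stayed called there, with an adjusted p of 0.116 for LYPD1 and 0.0861 for TRPV1.

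BDNF had few counts in every group and no called response to CGRP. It had 14, 31 and 27 counts in deprived CGRP libraries, and 19, 12 and 17 in deprived control libraries. These are 0.495, 1.20 and 0.878 CPM with CGRP, against 0.626, 0.414 and 0.578 CPM in control. The ranges overlap, because the first CGRP library lay below 2 of the 3 controls. The log2 fold change was 0.65 ± 0.29 (adjusted p = 0.157). Over 14 alternative fits it ran from 0.36 to 0.94, with adjusted p from 0.0283 to 0.475. BDNF stayed uncalled in 13 of these fits. The call came without deprived CGRP replicate 1, the lowest of the CGRP libraries (0.94, adjusted p = 0.0283). In 2-DG medium BDNF had 1.11, 1.13 and 1.12 CPM with CGRP, against 0.830, 1.10 and 0.956 in control. In high glucose it had 0.674, 1.06 and 1.15 CPM with CGRP, against 1.17, 1.37 and 1.18 in control, so all CGRP libraries lay below all controls there. The log2 fold changes were 0.22 ± 0.25 (adjusted p = 0.646) in 2-DG medium and -0.37 ± 0.24 (adjusted p = 0.565) in high glucose. BDNF held only 12 to 43 counts a library. The 95% interval of its high-glucose difference ran from -0.88 to 0.14 on the log2 scale, a range that includes no change.

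The neurofilament gene NEFM rose between 1.97-fold and 2.49-fold in the 3 media. In deprived medium its level was 2.23, 2.12 and 2.54 CPM with CGRP, against 0.889, 0.896 and 0.986 CPM in control. In 2-DG medium it was 16.7, 18.3 and 14.9 CPM with CGRP, against 8.58, 9.17 and 7.58 CPM in control. In high glucose it was 12.6, 15.1 and 13.7 CPM with CGRP, against 6.98, 6.45 and 6.29 CPM in control. In each medium every CGRP library lay above every control library. The folds of CGRP over control were 2.49 (log2 1.31 ± 0.15, adjusted p = 4.51e-05), 1.97 (0.98 ± 0.09, adjusted p = 5.19e-06) and 2.10 (1.07 ± 0.10, adjusted p = 5.68e-06) in deprived, 2-DG and high-glucose medium. An antisense gene, AF106564.1, shares 1706 exon bases with NEFM (38.9% of the NEFM exons in GENCODE 29), and its summed counts were 108 in deprived CGRP and 56 in deprived control, 344 in 2-DG CGRP and 220 in 2-DG control, and 329 in high-glucose CGRP and 206 in high-glucose control. Whether the counting used strand is not given in the sources used here, so reads of this pair cannot be told apart.

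NEFL, the partner subunit of NEFM, was called in high glucose and in neither other medium. There it had 3.55, 3.57 and 3.88 CPM with CGRP, against 1.97, 1.72 and 2.29 CPM in control. All 3 CGRP libraries lay above the controls, with a fold of 1.84 (log2 0.88 ± 0.15, adjusted p = 0.00269). In deprived medium it had 0.954, 1.12 and 1.04 CPM with CGRP, against 0.889, 0.931 and 0.442 CPM in control (0.46 ± 0.22, adjusted p = 0.186). In 2-DG medium it had 3.79, 3.73 and 3.29 CPM with CGRP, against 2.95, 2.70 and 2.67 CPM in control (0.37 ± 0.15, adjusted p = 0.12). The groups did not overlap in any of the 3 media, and over the media together NEFL rose by 0.57 ± 0.10 (adjusted p = 0.000688). The difference of the NEFL response between 2-DG and high glucose was -0.51 ± 0.21 (adjusted p = 0.505), so no difference between media was called.

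The ratio of NEFM to NEFL counts gives the balance of both subunits within a library. It was 2.22 ± 0.287 in deprived CGRP and 1.40 ± 0.722 in deprived control, 4.61 ± 0.254 in 2-DG CGRP and 3.05 ± 0.302 in 2-DG control, and 3.77 ± 0.396 in high-glucose CGRP and 3.35 ± 0.531 in high-glucose control (SD, n = 3 each). CGRP and control ratios overlapped in deprived medium and in high glucose and did not overlap in 2-DG medium. No test was run on this ratio.

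LYPD1 had the largest fold changes with CGRP among the members in 2-DG and high-glucose medium. Its level in deprived medium was 1.63, 1.43 and 1.56 CPM with CGRP, against 1.09, 0.793 and 0.748 CPM in control. In 2-DG medium it was 9.07, 9.37 and 8.46 CPM with CGRP, against 2.77, 3.53 and 3.82 CPM in control. In high glucose it was 10.6, 10.3 and 10.6 CPM with CGRP, against 3.64, 4.41 and 4.17 CPM in control. No CGRP library overlapped a control of its medium. The folds were 1.75 in deprived medium (log2 0.81 ± 0.17, adjusted p = 0.00584), 2.66 in 2-DG medium (1.41 ± 0.11, adjusted p = 8.42e-07) and 2.57 in high glucose (1.36 ± 0.11, adjusted p = 2.57e-06). By size of the fold LYPD1 ranked 66 in 2-DG medium and 38 in high glucose among the genes with a higher level. GPR39 lies on the opposite strand and shares 1180 exon bases with LYPD1 (48.9% of the LYPD1 exons). GPR39 counts were 1423 in 2-DG CGRP against 1515 in 2-DG control, and 1436 in high-glucose CGRP against 1362 in high-glucose control, and GPR39 was not called in either medium. In deprived medium GPR39 rose by 0.24 ± 0.06 (adjusted p = 0.0207), with 1320 counts in deprived CGRP and 1165 in deprived control.

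Of the channel genes TRPV1 and SCN9A and the vesicle gene SYT1, TRPV1 was called with CGRP in deprived medium and SCN9A and SYT1 in none. TRPV1 had 9.72, 10.5 and 8.94 CPM in deprived CGRP libraries, against 7.51, 7.24 and 7.07 CPM in deprived control libraries. The groups did not overlap, and the fold was 1.33 (log2 0.42 ± 0.08, adjusted p = 0.00281). In high glucose TRPV1 had 4.72, 3.97 and 4.20 CPM with CGRP, against 3.41, 3.68 and 3.47 CPM in control (0.29 ± 0.09, adjusted p = 0.108). In 2-DG medium the log2 fold change was -0.02 ± 0.12, with a 95% interval from -0.26 to 0.23. SCN9A had 30.5, 23.3 and 31.5 CPM in deprived CGRP libraries, against 24.1, 23.0 and 23.0 CPM in deprived control libraries. Its second CGRP library, one of those that stood apart, lay within the control range, and the difference of 0.29 ± 0.15 was not called (adjusted p = 0.216). Without that library the difference was 0.42 with an adjusted p of 0.015. SYT1 had 17.7, 15.4 and 18.7 CPM in deprived CGRP, against 18.7, 19.8 and 19.9 CPM in deprived control, a log2 fold change of -0.17 ± 0.08 (adjusted p = 0.177). In 2-DG medium the log2 fold changes were -0.10 ± 0.33 for SCN9A and 0.13 ± 0.09 for SYT1, and in high glucose -0.47 ± 0.37 and -0.08 ± 0.09.

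Some markers of other cell types moved with CGRP beside NEFM and LYPD1. The endothelial markers summed to 3.12 to 3.87 CPM in deprived CGRP against 1.86 to 2.64 CPM in deprived control, to 39.8 to 43.8 CPM in 2-DG CGRP against 21.4 to 25.2 CPM in 2-DG control, and to 42.5 to 44.0 CPM in high-glucose CGRP against 24.4 to 25.2 CPM in high-glucose control. CDH5, an adhesion gene of endothelial cells, rose by 0.79 ± 0.06 over the media together (adjusted p = 1.06e-07). The leukocyte markers summed to 0.195 to 0.501 CPM in deprived CGRP against 0.0345 to 0.0988 CPM in deprived control, to 3.20 to 4.31 CPM in 2-DG CGRP against 1.85 to 2.14 CPM in 2-DG control, and to 3.03 to 4.68 CPM in high-glucose CGRP against 2.19 to 2.37 CPM in high-glucose control. CD14, a monocyte gene, rose by 1.34 ± 0.22 over the media together (adjusted p = 0.00033). The CD14 change was 2.71 ± 0.61 in deprived medium, where the list was near 0 in control. It was 0.75 ± 0.19 in high glucose (adjusted p = 0.031) and 0.55 ± 0.20 without a call in 2-DG medium (adjusted p = 0.0851). PTPRC, the other leukocyte marker tested, rose by 5.43 ± 0.70 in 2-DG medium (adjusted p = 0.000315) and had -0.05 ± 1.47 in high glucose. Of the fibroblast markers COL1A1, COL1A2 and PDGFRB rose over the media together, of the Schwann cell markers NCAM1 rose, and none of the tested neuron markers was called. The part of these markers in the rise of NEFM and LYPD1 was not tested.

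**Figure D2:**
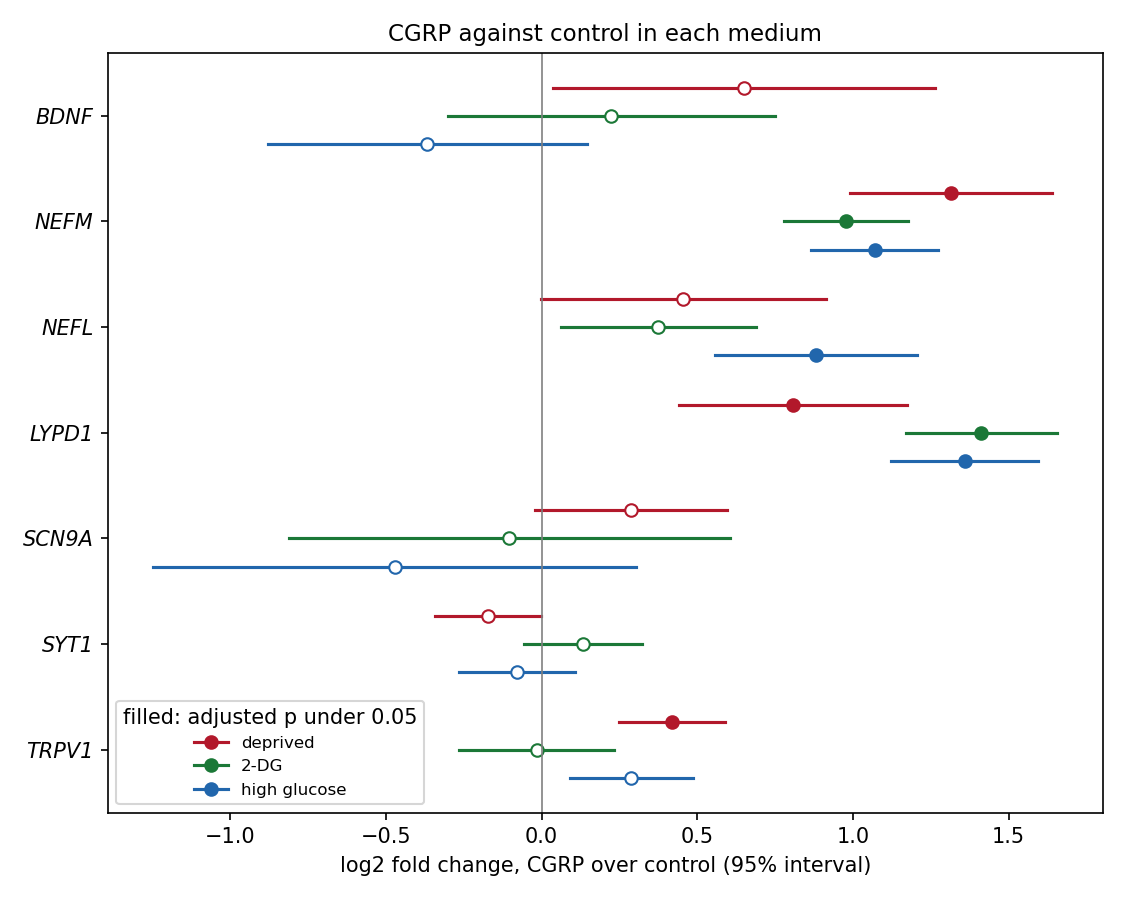
Log2 fold change of CGRP over control for each gene (x axis, with 95% interval) in deprived, 2-DG and high-glucose medium, filled where the adjusted p was under 0.05. NEFM and LYPD1 are filled in all 3 media at 0.81 to 1.41, NEFL in high glucose and TRPV1 in deprived medium.

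The CGRP responses were then compared between media. For deprived minus high glucose no member passed the test, against 0.903% of all genes called higher and 0.65% lower. At an unadjusted p under 0.05 there were 2 members, and DESeq2 called 0. These were BDNF, whose response differed by 1.02 ± 0.38 (adjusted p = 0.247), and LYPD1, whose response differed by -0.55 ± 0.21 (adjusted p = 0.263). For 2-DG minus high glucose no member passed either, against 0.121% called higher and 0.27% lower, and again 2 had an unadjusted p under 0.05 (NEFL and TRPV1) and DESeq2 called 0. A larger response in one medium than in another is therefore not shown for any member with all libraries. Without both libraries that stood apart, SCN9A passed for deprived minus high glucose, with a difference of 0.88 and an adjusted p of 0.0485.

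Glucose deprivation moved every member in the control arm, in opposite directions. SCN9A, SYT1 and TRPV1 rose and BDNF, NEFM, NEFL and LYPD1 fell. Deprivation moved many genes, with 31% of all tested genes called higher and 29.6% called lower, so a call alone does not set a member apart here. The median log2 fold change of the members was -1.19, against 0.02 over all genes. In the CGRP arm 3 members rose and 3 fell, against 31.9% of all genes called higher and 28.5% lower, and BDNF was not called.

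SCN9A showed the widest range of any member. Deprived control libraries held 731, 667 and 676 counts, against 18, 15 and 25 in high-glucose control libraries. In the CGRP arm, deprived libraries held 864, 605 and 970 counts, against 18, 18 and 8 in high glucose. No deprived library came near a high-glucose one, and 2-DG libraries held 13 to 34 counts. The level was 23.4 ± 0.628 CPM in deprived control and 0.640 ± 0.186 CPM in high-glucose control (SD, n = 3 each), a fold of 36.4 (log2 5.19 ± 0.22, adjusted p = 5.59e-12). In the CGRP arm the fold was 61.7 (log2 5.95 ± 0.23, adjusted p = 1.52e-12). By size of the fold SCN9A ranked 23 among all genes with a higher level in each arm. An antisense gene, AC010127.1, shares 1122 exon bases with SCN9A (8.17% of the SCN9A exons), and its counts were 385 in deprived control and 294 in high-glucose control. Of the sensory neuron markers only PRPH and POU4F1 were tested. PRPH, the intermediate filament of peripheral neurons, had 1.72 ± 0.0807 CPM in deprived control, against 0.0429 ± 0.0483 CPM in high-glucose control (SD, n = 3 each). The summed level of that marker list, POU4F1 included, did not rise. It was 7.72 to 8.89 CPM in deprived control, against 8.68 to 9.68 CPM in high-glucose control.

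SYT1 and TRPV1 rose with deprivation in both arms. SYT1 had 18.7, 19.8 and 19.9 CPM in deprived control libraries, against 8.28, 8.13 and 8.85 CPM in high-glucose control libraries. Its fold was 2.31 in the control arm (log2 1.21 ± 0.08, adjusted p = 2.79e-09) and 2.17 in the CGRP arm (1.12 ± 0.08, adjusted p = 7.89e-09). TRPV1 had 7.51, 7.24 and 7.07 CPM in deprived control libraries, against 3.41, 3.68 and 3.47 CPM in high-glucose control libraries. For TRPV1 the fold was 2.07 in the control arm (log2 1.05 ± 0.09, adjusted p = 2.5e-08) and 2.26 in the CGRP arm (1.18 ± 0.08, adjusted p = 3.36e-09). Deprived and high-glucose libraries did not overlap for either gene in either arm. SHPK, which shares 242 exon bases with TRPV1 on the same strand, moved the other way, with 174 counts in deprived control against 360 in high-glucose control. A larger overlap on the same strand is with AC027796.3, which shares 1519 exon bases (27.5% of the TRPV1 exons). AC027796.3 had 1 count in deprived control and 0 in high-glucose control. How reads in shared bases were assigned is not given in the sources used here.

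The neurofilament genes and LYPD1 fell in deprived medium, where their CGRP groups still lay above their controls. NEFM held 27, 26 and 29 counts in deprived control libraries, against 209, 203 and 187 in high-glucose control libraries. It fell by 2.83 ± 0.13 on the log2 scale (adjusted p = 2.2e-11) in the control arm and by 2.58 ± 0.11 (adjusted p = 5.83e-12) in the CGRP arm. NEFL held 27, 27 and 13 counts in deprived control libraries, against 59, 54 and 68 in high-glucose control libraries. NEFL fell by 1.39 ± 0.19 (adjusted p = 1.02e-05) in the control arm and by 1.82 ± 0.17 (adjusted p = 1.14e-07) in the CGRP arm. LYPD1 held 33, 23 and 22 counts in deprived control libraries, against 109, 139 and 124 in high-glucose control libraries. LYPD1 fell by 2.21 ± 0.15 (adjusted p = 1.98e-09) in the control arm and by 2.76 ± 0.13 (adjusted p = 1.63e-11) in the CGRP arm. BDNF held 19, 12 and 17 counts in deprived control libraries, against 35, 43 and 35 in high-glucose control libraries, and fell by 1.19 ± 0.27 (adjusted p = 0.00116). In the CGRP arm the BDNF difference was -0.17 ± 0.26 (adjusted p = 0.584), where the ranges of 0.495 to 1.20 and 0.674 to 1.15 CPM overlapped. BDNF-AS, an antisense gene that shares 9.06% of the BDNF exon bases, moved the other way, with 264 counts in deprived control against 157 in high-glucose control.

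In deprived control the summed levels of squamous epithelium, fibroblast, endothelial and leukocyte markers were lower than in high-glucose control, and those of Schwann cell and neuron markers were higher. The squamous epithelium markers summed to 4271 to 4347 CPM in deprived control, against 5214 to 5317 CPM in high-glucose control. The counts of markers that fell stand beside the 29.6% of all tested genes called lower. Of the fibroblast markers 4 of 7 were tested and all 4 fell in the control arm, and their summed level was 10.6 to 11.6 CPM in deprived control, against 25.4 to 27.0 CPM in high-glucose control. Of the endothelial markers 2 of 5 were tested and both fell, and their summed level was 1.86 to 2.64 CPM in deprived control, against 24.4 to 25.2 CPM in high-glucose control. Of the leukocyte markers 2 of 5 were tested, 1 fell, and the summed level was 0.0345 to 0.0988 CPM in deprived control, against 2.19 to 2.37 CPM in high-glucose control. Of the Schwann cell markers 4 of 7 were tested and 3 fell, with a summed level of 66.4 to 69.1 CPM in deprived control, against 60.6 to 66.4 CPM in high-glucose control. The neuron markers summed to 17.65 to 17.95 CPM in deprived control, against 14.99 to 15.86 CPM in high-glucose control. The part of these markers in the fall of NEFM, NEFL and LYPD1 was not tested.

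With 2-DG only NEFM was called, by a small margin. In the control arm it had 8.58, 9.17 and 7.58 CPM in 2-DG libraries, against 6.98, 6.45 and 6.29 CPM in high-glucose libraries (log2 0.36 ± 0.10, adjusted p = 0.0228). All 2-DG libraries lay above all high-glucose libraries. That is 1 member higher and none lower, against 7.99% of all genes called higher and 5.85% lower. NEFL was higher by 0.48 ± 0.16 without a call (adjusted p = 0.0544). Leaving out either of 2-DG control replicates 1 and 2 or either of high-glucose control replicates 2 and 3 ended the NEFM call, with adjusted p of 0.063 to 0.0941. In the CGRP arm no member was called, against 1.52% of all genes called higher and 0.87% lower. There 2 members (NEFM and LYPD1) had an unadjusted p under 0.05 and DESeq2 called 0. None of SCN9A, SYT1 and TRPV1 was called with 2-DG in either arm. For SCN9A the 95% interval of the 2-DG difference was -0.55 to 0.88 in the control arm and -0.24 to 1.30 in the CGRP arm on the log2 scale.

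**Figure D3:**
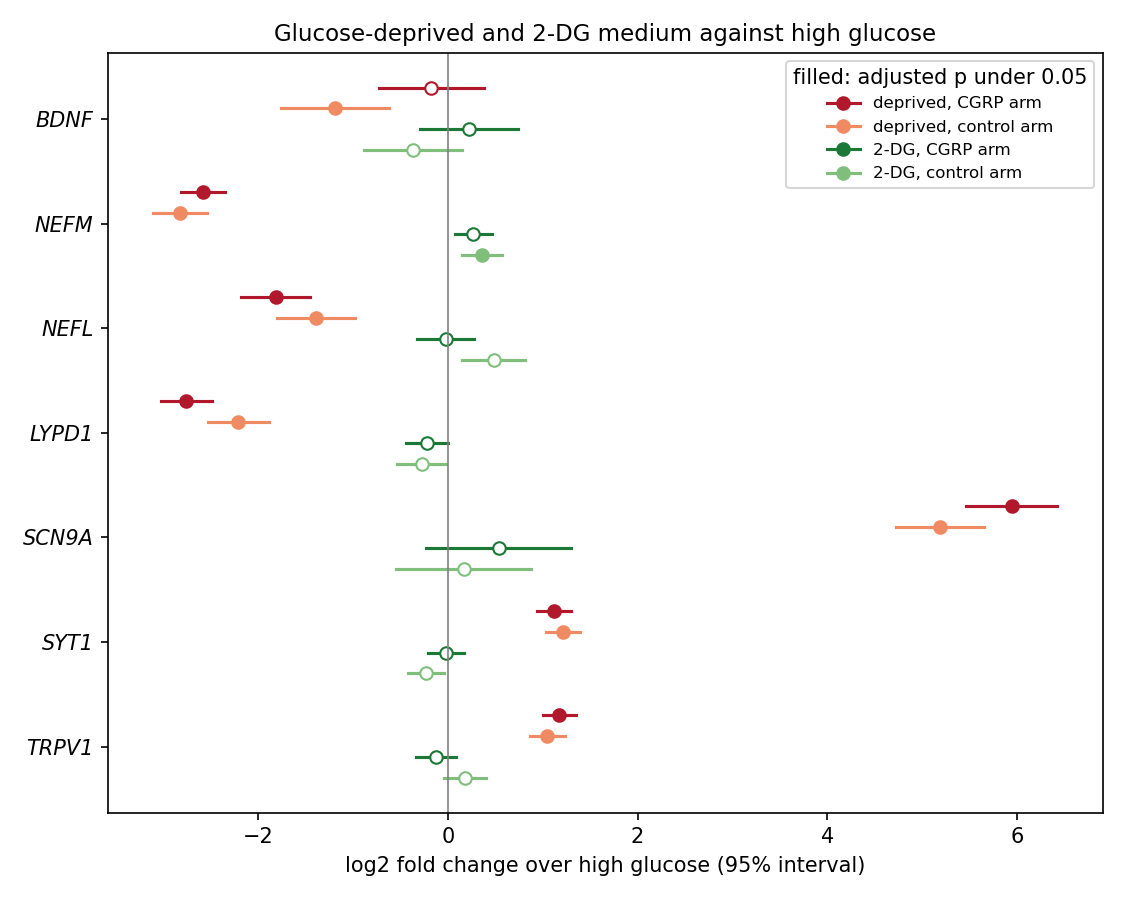
Log2 fold change over high glucose (x axis, with 95% interval) of deprived and 2-DG medium in the CGRP and control arms, filled where the adjusted p was under 0.05. SCN9A lies at 5.19 and 5.95 with deprivation, NEFM, NEFL and LYPD1 lie between -2.83 and -1.39, and the 2-DG values lie between -0.37 and 0.53.

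The order of the 6 group means sets the genes apart. For NEFM the means were 16.6 ± 1.71 CPM in 2-DG CGRP, 13.8 ± 1.24 in high-glucose CGRP, 8.44 ± 0.803 in 2-DG control, 6.57 ± 0.359 in high-glucose control, 2.29 ± 0.217 in deprived CGRP and 0.924 ± 0.0540 in deprived control (SD, n = 3 each). Only the first pair of neighbours in that order overlapped in their libraries. LYPD1 ran from 10.5 ± 0.173 CPM in high-glucose CGRP to 0.876 ± 0.184 in deprived control, and its high-glucose control and 2-DG control overlapped. NEFL ran from 3.67 ± 0.186 CPM in high-glucose CGRP, which overlapped 2-DG CGRP, to 0.754 ± 0.271 in deprived control. For SCN9A, deprived CGRP (28.5 ± 4.49 CPM) and deprived control (23.4 ± 0.628) overlapped at the top, and the other 4 groups lay between 0.456 ± 0.175 and 0.705 ± 0.308 CPM and overlapped with their neighbours. SYT1 had deprived control on top at 19.5 ± 0.666 CPM and 2-DG control at the bottom at 7.16 ± 0.650, and its 4 groups outside deprivation overlapped in a row. TRPV1 had deprived CGRP on top at 9.73 ± 0.789 CPM and high-glucose control at the bottom at 3.52 ± 0.147. BDNF ran from 1.24 ± 0.111 CPM in high-glucose control to 0.539 ± 0.111 in deprived control, and every pair of neighbours below the first overlapped.

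Per kilobase of exon, the genes can be set beside each other. In their highest groups LYPD1 had 4.34 CPM per kilobase, NEFM 3.79, SYT1 3.00, SCN9A 2.07, TRPV1 1.76, NEFL 0.847 and BDNF 0.160. In their lowest groups SCN9A had 0.0332 CPM per kilobase and BDNF 0.0697, while SYT1 stayed at 1.10. The range of SCN9A was the widest of the 7. Lengths are of all annotated exons joined, so a gene that uses short transcripts is understated.

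The genes whose levels were most like each member were found by Pearson's r of log2 CPM over the 18 libraries, among 12339 genes of sufficient level. These libraries share 6 conditions and the deprived libraries lie far from the others, which sets most of each r. NEFM was most like PTGS1 (0.991), ANXA8L1 (0.989) and STING1 (0.988), and NEFL most like MATN2 (0.977), ANXA8 (0.965) and MT-CYB (0.965). LYPD1 was most like GNAI2, NREP and DCAF6 (0.983 each). NREP, for example, averaged 27.4 CPM in high-glucose CGRP and 16.3 CPM in high-glucose control. SCN9A was most like PHYKPL (0.993), RGS3 (0.992) and SLC49A4 (0.990), SYT1 most like GPCPD1 (0.995), SGTB (0.991) and TAX1BP1 (0.991), and TRPV1 most like CLDN7 (0.983), HS1BP3 (0.981) and ALDH3B1 (0.981). BDNF had lower values, the highest being 0.887 with MAP3K9-DT. Among the members, NEFM had r of 0.959 with NEFL and 0.959 with LYPD1, SCN9A had 0.971 with SYT1 and 0.937 with TRPV1, and NEFM and SCN9A had -0.908.

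Related genes were counted by the role of each list, first among neurotrophic factors and their receptors. Each count of a list stands beside the 31% of all genes called higher and 29.6% called lower with deprivation in the control arm, or the 9.92% higher and 11.5% lower with CGRP averaged over the media. In the control arm 2 of 7 tested factors rose and 2 fell with deprivation, with a list median of 0.04 on the log2 scale against 0.02 over all genes. MANF, a secreted protein of the endoplasmic reticulum stress response, rose by 2.33 ± 0.14 (adjusted p = 6.88e-10), and NTF4, another ligand of NTRK2, rose by 0.62 ± 0.17 (adjusted p = 0.00442). Besides BDNF, PSPN fell by 0.51 ± 0.19 (adjusted p = 0.0318). NTF4 and BDNF, which share a receptor, thus moved in opposite directions. Of 5 tested receptors 1 rose and 3 fell. NGFR, the receptor shared by all neurotrophins, fell by 1.07 ± 0.07 (adjusted p = 2.91e-09), SORL1 fell by 0.82 ± 0.22 (adjusted p = 0.0037) and NTRK2 fell by 0.49 ± 0.11 (adjusted p = 0.00117), while RET rose by 0.53 ± 0.19 (adjusted p = 0.0215). Of 9 tested neurotrophin processing enzymes none rose and 7 fell, with a median of -0.64, and PLAT, the tissue plasminogen activator, fell by 3.85 ± 0.17 (adjusted p = 1.18e-11).

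With CGRP averaged over the media, 1 factor rose and none fell (NTF4, 0.29 ± 0.10, adjusted p = 0.0457), and without both libraries that stood apart 1 rose and 1 fell. Among the receptors NGFR rose by 0.42 ± 0.04 (adjusted p = 3.58e-06), SORT1, a sorting receptor that binds proneurotrophins, rose by 0.42 ± 0.06 (adjusted p = 0.00011), and RET fell by 0.39 ± 0.10 (adjusted p = 0.0125). In deprived medium ARTN, a ligand of the GDNF family, rose with CGRP by 0.54 ± 0.09 (adjusted p = 0.000709), and its response was larger there than in high glucose by 0.67 ± 0.12 (adjusted p = 0.00949).

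Neuronal intermediate filament genes fell with deprivation except PRPH, with 1 higher and 3 lower of 4 tested. NES, the filament of neural progenitors, fell by 3.31 ± 0.10 (adjusted p = 1.86e-13). With CGRP averaged over the media 3 rose and none fell, which were NEFM, NEFL and NES (0.41 ± 0.06, adjusted p = 6.84e-05). The NES response was larger in deprived medium than in high glucose by 0.83 ± 0.15 (adjusted p = 0.00788). Of 4 tested sodium channel genes, SCN9A and the beta subunit gene SCN3B (2.47 ± 0.24, adjusted p = 1.64e-07) rose with deprivation and none fell, and without both libraries that stood apart 2 rose and 1 fell. SCN3B also rose with CGRP averaged over the media, by 0.74 ± 0.14 (adjusted p = 0.00128), with group means under 3 CPM. SCN8A, another alpha subunit gene, was at 3.93 to 4.65 CPM in the 6 group means.

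Most other synaptotagmin genes fell where SYT1 rose, with 2 higher and 4 lower of 6 tested under deprivation and a median of -1.28. SYT8 fell by 2.48 ± 0.15 (adjusted p = 6.12e-10) and SYT12 by 1.47 ± 0.06 (adjusted p = 2.33e-12), and SYT7 rose by 0.57 ± 0.11 (adjusted p = 0.00025). With CGRP averaged over the media SYT8 rose by 1.09 ± 0.08 (adjusted p = 6.4e-08) and SYT12 by 0.24 ± 0.03 (adjusted p = 6.54e-05), and SYT1 had -0.04 ± 0.05 (adjusted p = 0.63). Among 20 tested genes of vesicle release, 9 rose and 7 fell with deprivation, led by UNC13D, a priming factor of secretory granules, at 2.02 ± 0.06 (adjusted p = 9.54e-14).

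Of 14 tested TRP channel genes, 8 rose and 4 fell with deprivation, with a median of 0.43. TRPV3, a warmth channel of keratinocytes, rose by 2.07 ± 0.12 (adjusted p = 4.48e-10), TRPV1 by 1.05 as above, and the cold channel gene TRPM8 fell by 1.89 ± 0.33 (adjusted p = 9.75e-05). With CGRP averaged over the media TRPV1 (0.23 ± 0.05, adjusted p = 0.00348), TRPV6 and TRPM8 rose and TRPM4 fell, and without both libraries that stood apart 3 rose and 3 fell.

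The LY6/uPAR family, which holds LYPD1, was counted next. With deprivation 2 rose and 7 fell of 11 tested, with a median of -0.88, and LYPD3 fell by 1.86 ± 0.06 (adjusted p = 5.74e-13) and LYPD5 by 1.43 ± 0.08 (adjusted p = 1.4e-10). With CGRP averaged over the media 5 rose and 2 fell, with a median of 0.06. LY6D, a keratinocyte surface protein, rose by 0.91 ± 0.07 (adjusted p = 2.89e-07), beside LYPD1 at 1.19 ± 0.08 (adjusted p = 2.93e-08), while PLAUR, the urokinase receptor, fell by 0.29 ± 0.05 (adjusted p = 0.000256). Of 5 tested nicotinic receptor subunit genes, CHRNB4 rose and CHRNA5 fell by 1.05 ± 0.08 (adjusted p = 9.41e-09) with deprivation.

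**Figure D4:**
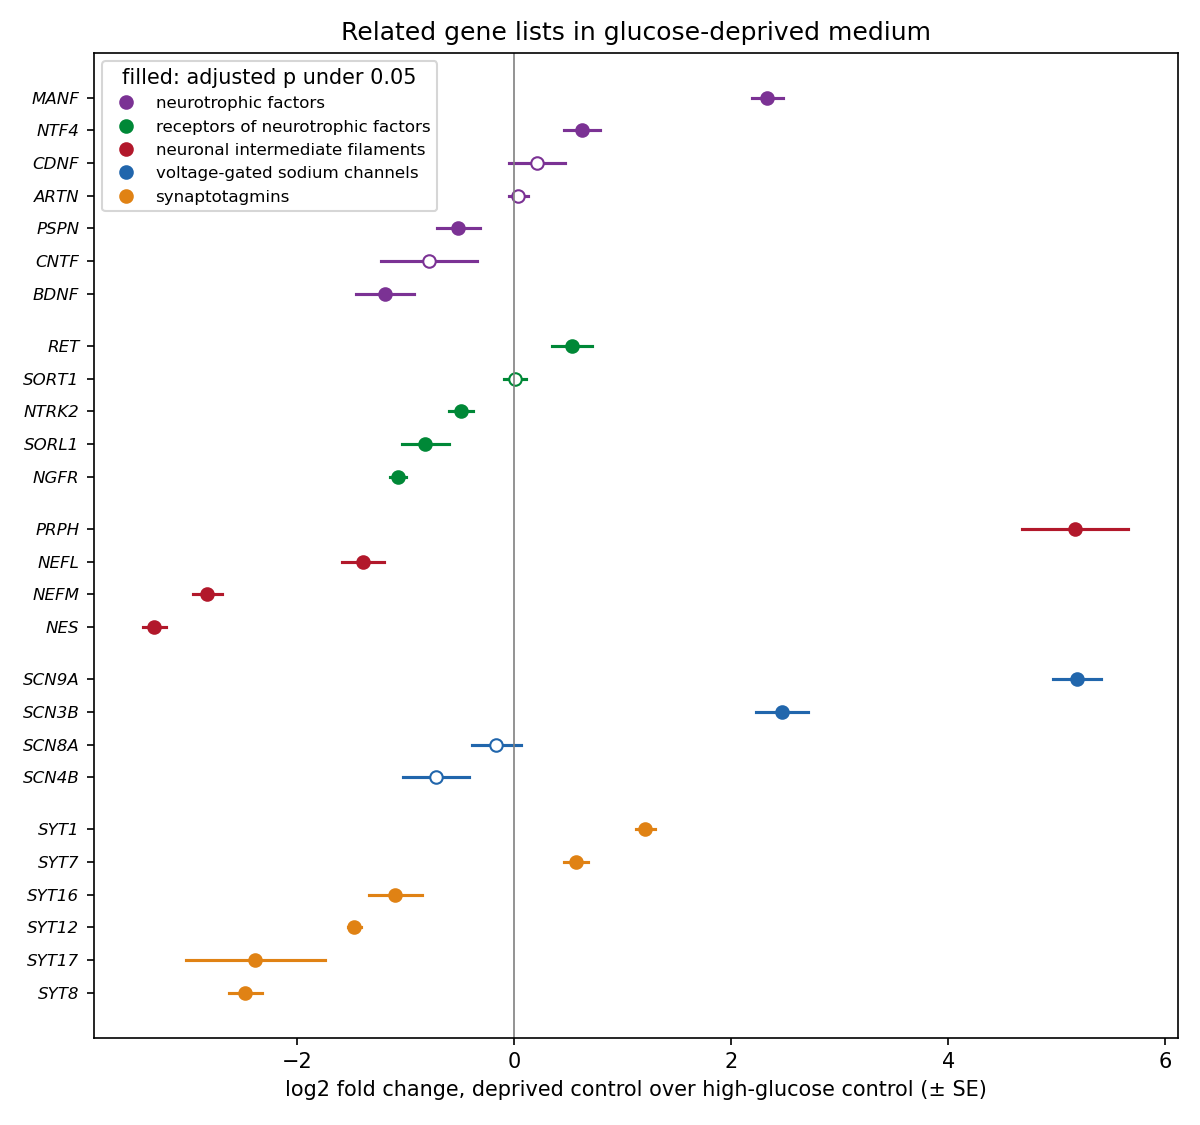
Log2 fold change of deprived control over high-glucose control (x axis, with SE) for tested genes of 5 lists, filled where the adjusted p was under 0.05. MANF and SCN9A lie to the right at 2.33 and 5.19, and NEFM and NES to the left at -2.83 and -3.31.

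Axon guidance genes and the REST complex, which represses neuronal genes outside neurons, were counted as well. With deprivation 6 guidance ligand genes rose and 14 fell of 24 tested (median -0.68), and 4 guidance receptor genes rose and 7 fell of 20 tested (median -0.21), against 31% of all genes called higher and 29.6% lower. Without both libraries that stood apart, 6 guidance receptor genes rose and 12 fell. With CGRP averaged over the media, 3 of the ligands rose and 3 fell, among them SEMA7A, which fell by 0.70 ± 0.04 (adjusted p = 2.16e-08), and without both libraries that stood apart 8 rose and 3 fell. REST itself rose with deprivation by 0.35 ± 0.12 (adjusted p = 0.0174), and its partners KDM1A and HDAC1 fell by 1.22 ± 0.04 (adjusted p = 2.7e-13) and 0.80 ± 0.05 (adjusted p = 1.59e-09). In all, 3 of the 12 genes of this list rose and 4 fell, shares near the 31% and 29.6% of all genes. Without both libraries that stood apart 4 rose and 6 fell. The list includes RILP, a gene of a lysosomal protein outside the complex.

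RNA of the CGRP receptor subunit gene CALCRL was detected in every group, and receptor protein was not measured. CALCRL averaged 2.79 ± 0.495 CPM in deprived CGRP and 2.17 ± 0.0607 CPM in deprived control, against 5.58 ± 1.06 CPM in high-glucose CGRP and 5.24 ± 0.726 CPM in high-glucose control (SD, n = 3 each). With deprivation in the control arm CALCRL fell by 1.27 ± 0.20 (adjusted p = 4.82e-05) and RAMP1 by 1.42 ± 0.19 (adjusted p = 5.92e-06). CALCB, which encodes the beta form of CGRP, had 47 counts in deprived control and 0 in high-glucose control, at least 16.1-fold higher against a floor of 3 counts over the group. It had 61 counts in deprived CGRP and 0 in high-glucose CGRP, at least 23.0-fold higher. The part of the endogenous transcript or of the lower CALCRL and RAMP1 RNA in the CGRP responses was not tested.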

How the data were processed

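The deposited table holds raw read counts per gene and library for 60683 Ensembl IDs, per the file headers. The reads were aligned with HISAT2 2.0.4, per the submitters' processing notes, which list both hg19 and GRCh38. Which program counted reads, on which annotation and strand setting, is not given in the sources used here. The design text calls the repetitions independent in biology but names no separate cultures, so p-values measure the spread between these samples.

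Genes passing filterByExpr (10 counts, 15 in total) left 18159. Counts were scaled by TMM and tested with edgeR 4.0.16 (R 4.3.3, limma 3.58.1) by the robust quasi-likelihood test on all 18 libraries, with 1 coefficient per group, Benjamini-Hochberg adjustment and a threshold of 0.05. The common biological coefficient of variation was 9.44%. The procedure was tested on simulated data. Intervals cover counting and replicate error only. Alternatives were DESeq2 1.42.0 and other scalings, filters, library sets and a replicate block. Exon overlaps and lengths are from GENCODE 29, sequences from RefSeq GRCh38.p14.

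All 7 members are named. Of each list, the called genes with the smallest adjusted p, up to 5, and for each member the 3 most alike genes could be named. SCN8A, REST and TRPM8 fall outside this rule and were chosen after their values were seen. The members and lists were chosen with earlier results of these data known. Some related genes are not reported here.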

Additional observations from a re-analysis of the deposited data

How the results depend on the processing

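Across the alternatives, 1121 values for single members kept their side of the threshold, 11 gained a call and 9 lost one. No value called in the main or the alternative fit changed sign. Uncalled values could change sign, as for SCN9A with CGRP in 2-DG medium, where the log2 fold change ran from -0.34 to 0.30. Members called changed as follows. For 2-DG against high glucose in the control arm (1 called), the count was 0 with total-count scaling, without a low-count filter and with only the groups compared, 2 with DESeq2 and 2 without both libraries that stand apart, and 0 to 1 when 1 library was left out. For CGRP in deprived medium (3 called), only the groups compared gave 1, with TRPV1 at an adjusted p of 0.0861 and LYPD1 at 0.116. For 2-DG against high glucose in the CGRP arm (0 called), only the groups compared gave 2 and leaving out both libraries that stand apart gave 2 (NEFM and LYPD1). For the CGRP response in deprived minus high glucose (0 called), leaving out both gave 1 (SCN9A). With both left out, SCN9A in deprived medium had an adjusted p of 9.35e-06 and TRPV1 in high glucose one of 0.0483. DESeq2 gave NEFL an adjusted p of 0.0452 for 2-DG in the control arm. The cause was not tested. With the replicate block the counts of called members were 3, 2 and 3 for CGRP in deprived, 2-DG and high-glucose medium, as without it, and no other call of a member changed. Same-numbered libraries did not deviate together (median r -0.006 over 45 pairs, against 0.003 over 90 other pairs, with 6 of 18 libraries closest to their own number).

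Counts over all genes moved more. For CGRP in deprived medium (2354), only the groups compared gave 141 and no filter 1463. For CGRP in 2-DG medium (2216), only the groups compared gave 1194. For CGRP in high glucose (787), only the groups compared gave 3653 and no filter 474. Leaving out both libraries that stand apart raised CGRP averaged over the media to 7209 (3883), 2-DG against high glucose to 5997 in the control arm (2513) and 3598 in the CGRP arm (434), and the differences between media to 2500 (282) and 1092 (71). For these last 4, only the groups compared gave 1551, 2363, 164 and 142. For the last 3, DESeq2 gave 710, 519 and 228 and no filter gave 246, 163 and 30. Leaving out 1 library at a time gave 1282 to 2726, 1447 to 1826 and 353 to 487 calls for CGRP in deprived, 2-DG and high-glucose medium, 1593 to 2078 and 157 to 197 for 2-DG in the control and CGRP arms, and 162 to 582 and 13 to 50 for the differences between media. Total-count scaling changed the share of higher calls to 66.2% (49.2%), 57% (43.5%) and 60.4% (46.4%) for CGRP in deprived medium, in 2-DG medium and averaged, to 38% (51.2%) and 41.5% (52.8%) for deprivation in the control and CGRP arms, to 38.1% (57.7%) and 51.1% (63.6%) for 2-DG in these arms, and to 70.5% (58.2%) and 44.4% (31%) for the differences between media. It set the median of all genes for deprivation in the control arm to -0.13, against 0.02 with TMM. It moved 8 of 42 group means of the members by over 1 SD. Depth limits BDNF, NEFL and the low groups of SCN9A, where libraries held as few as 8 counts.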
